A study of Oryza sativa Japonica Group with 59 samples.

Results

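The genes described here are 200 rice genes that wild-type (WT) egg cells and zygotes express at similar levels and that WT male germ cells express little. They were chosen by their TPM (a transcript level scaled to gene length and library size) in the WT libraries. A gene had to reach a mean of 10 TPM in egg and in zygote, with a zygote/egg ratio between 0.5 and 2. Of 55986 genes in the files, 10118 met the TPM minimum and 8458 also met the ratio. These were ranked by a score, the lower of the egg and zygote means plus 1 divided by the highest of the meiocyte, microspore and sperm means plus 1, and the first 200 were taken. The other 8258 genes that met the minimum and the ratio serve below as a comparison set. WT levels set the choice, so they are given as a description with no test.

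The series compares rice germ cells that lack one of 2 chromomethylases, CMT3a and CMT3b, with WT. RNA-seq was made from cmt3a egg (2 libraries), cmt3b egg (2) and WT egg (3), from cmt3b zygote (3) and WT zygote (3), from cmt3b meiocyte (3) and WT meiocyte (3), from WT unicellular microspore (3), and from cmt3b sperm (3) and WT sperm (2 files). All plants were of the japonica variety Zhonghua11 (ZH11); the mutants came from CRISPR-Cas9 editing and no longer carried Cas9, and the WT plants had been regenerated from tissue culture. Zygotes were still unicellular and were collected about 6.5 h after pollination (the labels also give 6 to 8 h after fertilization). The cmt3a plants were infertile, and no cmt3a zygote and no cmt3a male RNA-seq library is among the samples. Each library was made from a pool of isolated cells, so fewer cells of a kind and less RNA per cell cannot be told apart. The mutant line behind each library is not given in the sources used here.

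In plants the egg cell is loaded with RNA before fertilization, and much of the RNA of a young zygote is inherited from it. Transcripts at a like level in egg and zygote are therefore either carried over or made in both cells, and TPM values do not separate these cases. Chromomethylases of the CMT3 type methylate cytosines in the CHG context (H is A, C or T), a mark of silent transposable elements and of some genes, which is bound to methylation of histone H3 at lysine 9.

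Total counts per library were between 9240046 and 25610860. Replicate libraries agreed closely, and the median coefficient of variation of the 200 genes was between 3.27% and 6.71% in the egg and zygote groups. The pair of WT sperm files agreed within sampling noise (chi-square per degree of freedom 0.24, against 1.37 to 6.73 in the 23 other pairs of replicates), so it was taken as a single sample. Each targeted gene was lower in its own mutant than in WT, though not in that mutant alone. CMT3a (LOC_Os10g01570) had 4.86 and 4.46 TPM in cmt3a egg, against 12.7, 11.8 and 13.8 TPM in WT egg. CMT3b (LOC_Os03g12570) had 0 and 0.0186 TPM in cmt3b egg, against 1.46, 1.35 and 1.46 TPM in WT egg. In the other cmt3b cells, CMT3b averaged 0.899 TPM in zygote, 1.45 in meiocyte and 0.994 in sperm, against 2.04, 7.13 and 7.77 TPM in the WT cells of the same kind. CMT3b was also low in cmt3a egg, at 0.0799 and 0.225 TPM. CMT3a was also lower in cmt3b meiocyte than in WT meiocyte (log2 fold change -1.25) and higher in cmt3b egg than in WT egg (1.00).

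In WT cells the 200 genes were not equally restricted to egg and zygote. Their scores were between 761 and 4.67, with a median of 7.11; 11 genes had a score over 50, 29 over 20 and 62 over 10. The highest male level of a gene was under 1 TPM in 34 of the 200, between 1 and 10 TPM in 122 and over 10 TPM in 44, with a median of 3.25 TPM. The highest, 87.5 TPM, was that of LOC_Os01g71599 in meiocyte. The male cell with the highest level was meiocyte for 144 genes, microspore for 44 and sperm for 12. "Egg and zygote only" therefore describes the top of the ranking and not all 200 genes. At the lower end, the last genes inside the list were LOC_Os05g34160 and LOC_Os05g42350, both with a score of 4.67, and the first genes outside it were LOC_Os06g36380 and LOC_Os12g34500, with scores of 4.65 and 4.64.

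A few genes carried much of the signal. LOC_Os02g18690, at rank 1, had 2761, 2926 and 2676 TPM in WT egg and 2875, 2903 and 2852 TPM in WT zygote, whereas its highest male level was 2.66 TPM, in meiocyte. It alone held 12% of the TPM of the 200 genes in WT egg. LOC_Os12g10540, at rank 2, averaged 1336 ± 38.0 TPM in WT egg and 896 ± 22.6 TPM in WT zygote (SD, n = 3 each) and at most 0.901 TPM in a male cell. The 10 genes of highest WT egg level, which include both of these and LOC_Os03g03810, LOC_Os09g19710, LOC_Os01g71599, LOC_Os03g47940, LOC_Os02g11040, LOC_Os02g13870, LOC_Os03g52320 and LOC_Os02g45770, together held 37.6%. In WT egg, 7 genes exceeded 500 TPM and 55 exceeded 100 TPM, and 33 were under 20 TPM. The median zygote/egg ratio was 0.944, with 89 genes higher in WT zygote and 111 higher in WT egg.

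The share of TPM held by the 200 genes was lower in mutant than in WT egg and zygote. They held 1.32% and 1.37% of all TPM in the cmt3a egg libraries and 1.56% and 1.58% in the cmt3b egg libraries, against 2.32%, 2.37% and 2.28% in the WT egg libraries. In zygote they held 1.96%, 1.91% and 1.99% in cmt3b, against 2.36%, 2.35% and 2.35% in WT. Neither the mutant egg libraries nor the cmt3b zygote libraries overlapped with WT. The same WT libraries chose the genes, which favours lower shares in mutant egg and zygote and higher shares in mutant male cells. The shares are therefore a description. Without LOC_Os02g18690, the summed mean level was 59.5% of WT in cmt3a egg, 71.7% of WT in cmt3b egg and 84% of WT in cmt3b zygote. In male cells the shares were far smaller and lay the other way, at 0.176% ± 0.00456 in cmt3b meiocyte and 0.137% ± 0.00303 in WT meiocyte (SD, n = 3 each), and at 0.0719% to 0.0787% in cmt3b sperm and 0.0326% and 0.0327% in the WT sperm files.

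**Figure D1:**
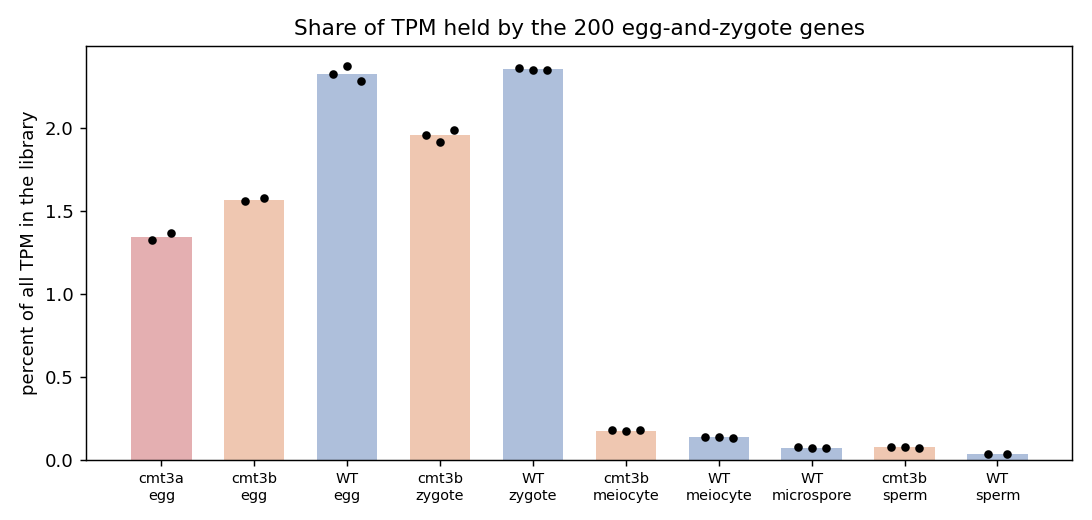
Percent of all TPM in a library (y axis) that belongs to the 200 egg-and-zygote genes, by group (x axis). Bars are group means and points are libraries. The mutant egg libraries lie between 1.32% and 1.58%, below the WT egg libraries at 2.28% to 2.37%, and no male library exceeds 0.179%.

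The median gene of the list showed the same order. It had 29.4 TPM in cmt3a egg and 30.0 TPM in cmt3b egg, against 42.6 TPM in WT egg, and 31.8 TPM in cmt3b zygote, against 46.1 TPM in WT zygote. In the comparison set the medians were 29.8 TPM in cmt3a egg and 27.9 TPM in cmt3b egg, against 37.3 TPM in WT egg, and 30.5 TPM in cmt3b zygote, against 30.2 TPM in WT zygote. All 200 genes had 10 TPM or more in WT egg and zygote by the way they were chosen. Of them, 173 did so in cmt3a egg, 166 in cmt3b egg and 180 in cmt3b zygote. These are 86.5%, 83% and 90% of the list, against 89.5%, 90.8% and 93.3% of the comparison set.

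Part of the TPM difference in egg was one of scale and not particular to the list. edgeR rescales libraries so that the bulk of genes is level (TMM), and the log2 TPM ratio minus the edgeR log2 fold change had a median of -0.35 over the 200 genes for cmt3a egg and -0.45 for cmt3b egg, each against WT egg. In the comparison set these medians were -0.35 and -0.44. For meiocyte the shift of the list was -0.20, and for zygote it was 0.0055. The TPM values below are as deposited, and fold changes and calls are on the TMM scale, so a gene with less than a 0.5 ratio to the WT TPM in egg need not be called.

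**Figure D2:**
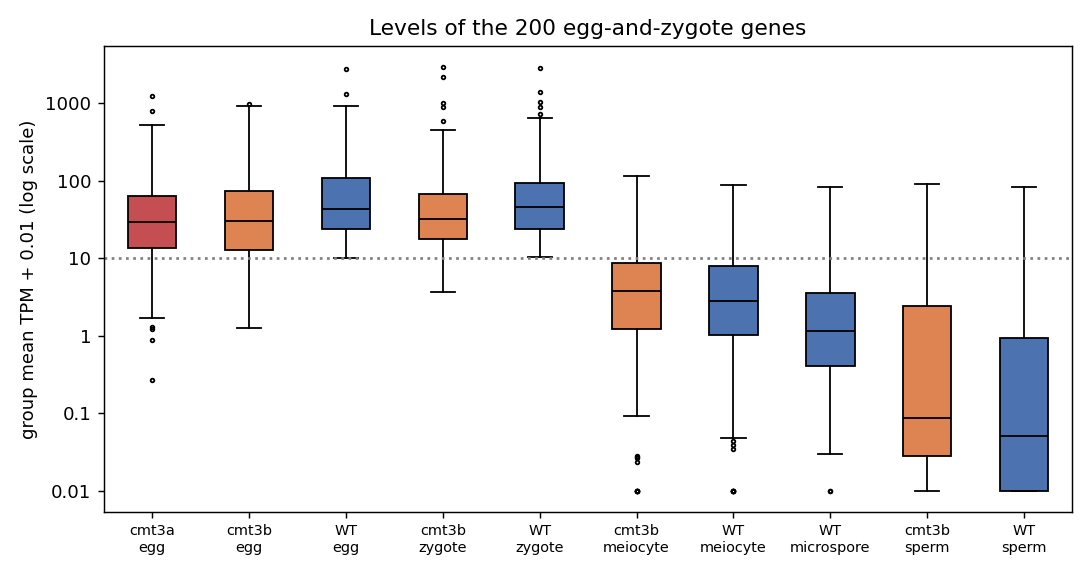
Group mean TPM plus 0.01 of the 200 genes (y axis, log scale) in each group (x axis). Boxes span the middle of the distribution with the median as a line, points lie beyond the whiskers, and the dotted line marks 10 TPM. The medians are 29.4 and 30.0 TPM in the mutant eggs, 42.6 TPM in WT egg, 31.8 TPM in cmt3b zygote and 46.1 TPM in WT zygote, and they are under 4 TPM in every male group.

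Mutant and WT libraries of the same cell were compared by the quasi-likelihood test of edgeR, with p-values adjusted by Benjamini-Hochberg over all genes tested. A call needed both a change of over 2-fold and an adjusted p below 0.01. The WT libraries that chose the genes are also the WT side of these comparisons. A gene that lay high in WT egg or zygote, or low in WT male cells, was more likely to enter the list, and this favours lower values in mutant egg and zygote and higher values in mutant male cells. The counts were therefore repeated, after the data had been seen, with the genes chosen without 1 WT replicate of egg, zygote and meiocyte and the mutant compared with that replicate of its own cell type alone. With a lone WT library the spread comes from the mutant libraries, and WT is assumed to vary as they do. The 3 held-out counts also share their mutant libraries. WT microspore and WT sperm stayed in the choice throughout. The WT replicates lay close together, and 194 to 200 of the genes were kept when 1 WT library was left out. These repeats therefore cannot exclude an effect of the choice.

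In cmt3a egg, 36 of the 200 genes fell and 5 rose. Among all 22744 genes tested, the share that fell was 18.5% and the share that rose was 19.6%, so the 18% of the list that fell was close to the share of all genes, and the 2.5% that rose was below it. In the comparison set, 9.52% were lower and 5.18% were higher. The median log2 fold change was -0.40 for the list, -0.10 for the comparison set and 0.01 for all genes, and 154 of the 200 genes were below 0. With a WT replicate held out of the choice, 38 to 42 genes were lower and 4 to 8 were higher.

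The largest fall in cmt3a egg was that of LOC_Os10g06800 (rank 41), which had 0.239 and 0.283 TPM in cmt3a egg, from 4 counts in each library, against 21.3, 21.0 and 19.7 TPM in WT egg. Its transcript was close to absent from cmt3a egg, with a log2 fold change of -5.93 (SE 0.226, edgeR adjusted p = 2.27e-13). LOC_Os08g02094 had 4.65 and 4.47 TPM in cmt3a egg, against 87.7, 92.0 and 86.9 TPM in WT egg. LOC_Os01g70230, LOC_Os02g10850 and LOC_Os06g15480 followed, with log2 fold changes of -3.47, -3.46 and -3.22 and between 0.695 and 1.45 TPM in the cmt3a egg libraries. None of these 5 genes is annotated in the sources used here.

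The same comparison held some of the largest rises of the list. LOC_Os11g11680 (rank 108) had 175 and 181 TPM in cmt3a egg, against 13.8, 14.5 and 10.8 TPM in WT egg, a log2 fold change of 4.13 (SE 0.0882, edgeR adjusted p = 6.42e-17). LOC_Os05g30470 (rank 31) had 261 and 281 TPM in cmt3a egg, against 26.3, 28.4 and 28.1 TPM in WT egg, a log2 fold change of 3.65 (SE 0.0566, edgeR adjusted p = 1.02e-18). Both genes lay among the lower levels of the list in WT egg and among its higher levels in the mutant. The other 3 genes that rose were LOC_Os11g24260, LOC_Os03g11080 and LOC_Os05g51020, with log2 fold changes of 2.01, 1.53 and 1.23.

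In cmt3b egg, 41 of the 200 genes fell and 7 rose. Among all 21466 genes tested, the share that fell was 8.43% and the share that rose was 14.3%, against 20.5% and 3.5% of the list. In the comparison set, 3.57% were lower and 7.42% were higher. By these counts the list leaned to lower levels where all genes and the comparison set leaned to higher ones. The choice of the genes favours lower levels in mutant egg, and the held-out counts cannot exclude this, so the lean is a description. The median log2 fold change was -0.40 for the list, 0.01 for the comparison set and -0.01 for all genes. With a WT replicate held out of the choice, 38 to 46 genes were lower and 7 to 8 were higher.

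The rank 1 gene was among those that fell. LOC_Os02g18690 had 976 and 1016 TPM in cmt3b egg, against 2761, 2926 and 2676 TPM in WT egg, a log2 fold change of -1.04 (SE 0.0389, edgeR adjusted p = 2.95e-21). In cmt3a egg it had 1214 and 1294 TPM and a log2 fold change of -0.80, short of the 2-fold limit. The largest fall was that of LOC_Os10g04280, with 1.39 and 1.11 TPM in cmt3b egg, from 10 and 9 counts, against 15.2, 18.2 and 13.8 TPM in WT egg (log2 fold change -3.18, SE 0.253, edgeR adjusted p = 8.61e-13). LOC_Os06g11840 had 12.1 and 11.9 TPM in cmt3b egg, against 87.7, 83.6 and 85.3 TPM in WT egg. LOC_Os10g06800, LOC_Os02g10850 and LOC_Os10g12450 fell by 2.36, 2.33 and 2.21 on the log2 scale.

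LOC_Os11g11680 and LOC_Os05g30470 were also the genes that rose most in cmt3b egg. LOC_Os11g11680 had 467 and 459 TPM in cmt3b egg, a log2 fold change of 5.61 over WT egg (SE 0.068, edgeR adjusted p = 9.57e-35). LOC_Os05g30470 had 455 and 429.6 TPM in cmt3b egg, a log2 fold change of 4.46 (SE 0.0464, edgeR adjusted p = 1.8e-36). The comparisons of cmt3a egg and of cmt3b egg share the WT egg libraries, so the values stand side by side and a like direction is not independent evidence. LOC_Os10g30880, LOC_Os01g32770 and LOC_Os03g53100 rose by log2 fold changes of 1.81, 1.72 and 1.11 in cmt3b egg. LOC_Os01g32770 had 608 and 626 TPM there, against 254, 269 and 246 TPM in WT egg.

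The mutant eggs were set against each other with no WT library in the fit. Of the 200 genes, 30 were lower and 19 were higher in cmt3a egg than in cmt3b egg. Among all 21694 genes tested, 19.3% lay lower and 17.7% lay higher, so the 15% and 9.5% of the list lay below the shares of all genes. In the comparison set, 12.6% lay lower and 5.17% lay higher, so the list lay above the comparison set on both sides. LOC_Os01g70230 differed most among the genes that were lower, with 1.04 and 0.695 TPM in cmt3a egg, against 11.8 and 10.8 TPM in cmt3b egg (log2 fold change -3.74). LOC_Os10g04280 differed most in the other direction, with 7.17 and 8.96 TPM in cmt3a egg, against 1.39 and 1.11 TPM in cmt3b egg (log2 fold change 2.60). LOC_Os11g11680 was lower in cmt3a egg than in cmt3b egg (log2 fold change -1.46), whereas the difference of LOC_Os05g30470, at a log2 fold change of -0.78, was short of the 2-fold limit.

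**Figure D3:**
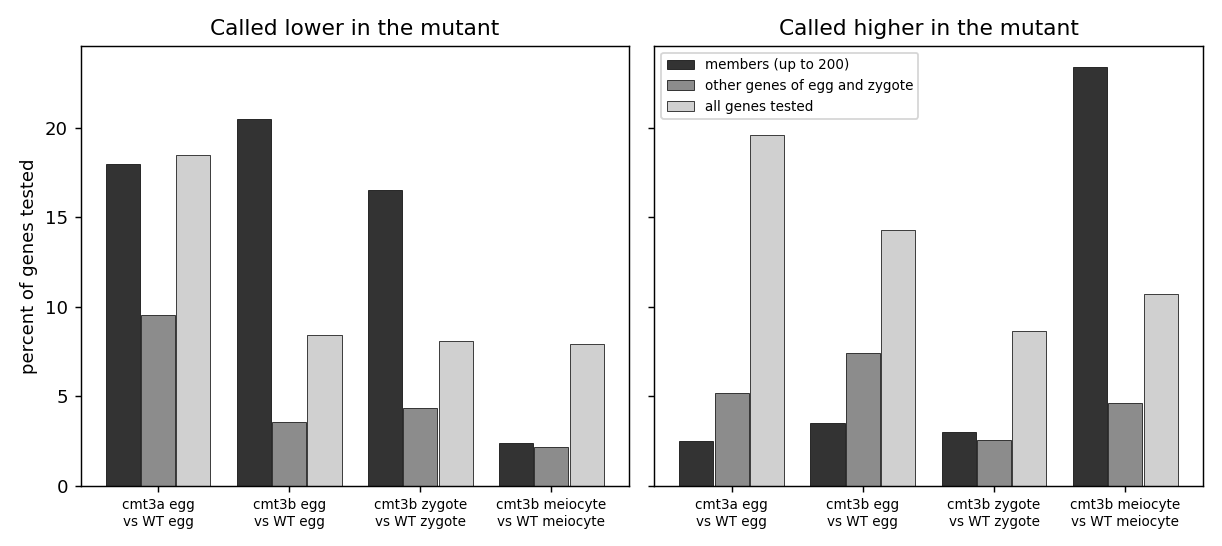
Percent of tested genes called lower (left) and higher (right) in the mutant (y axis) for 4 comparisons with WT (x axis), for the 200 genes, the 8258 other genes expressed in egg and zygote, and all genes tested. In cmt3b egg 20.5% of the list was lower, against 8.43% of all genes, and in cmt3b meiocyte 23.4% of the 167 genes tested was higher, against 10.7% of all genes.

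In cmt3b zygote, 33 of the 200 genes fell and 6 rose. Among all 20638 genes tested, the share that fell was 8.08% and the share that rose was 8.67%, against 16.5% and 3% of the list. In the comparison set, 4.35% were lower and 2.58% were higher. The median log2 fold change was -0.51 for the list, -0.06 for the comparison set and 0.00 for all genes, and 163 of the 200 genes were below 0. With a WT replicate held out of the choice, 33 to 38 genes were lower and 5 to 6 were higher.

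LOC_Os12g06130 (rank 9) fell most, with 71.8, 71.1 and 68.1 TPM in cmt3b zygote, against 316, 322 and 313 TPM in WT zygote (log2 fold change -2.18, SE 0.0489, edgeR adjusted p = 9.01e-22). In egg it had 29.3 and 31.5 TPM in cmt3a and 97.1 and 105 TPM in cmt3b, against 177, 177 and 163 TPM in WT. It fell in cmt3a egg (log2 fold change -2.15) and was not called in cmt3b egg (-0.32). LOC_Os10g12450, LOC_Os03g03000 and LOC_Os01g09880 fell by 2.18, 1.83 and 1.72 on the log2 scale, and LOC_Os05g19670 had 12.5 to 21.0 TPM in cmt3b zygote, against 65.7 to 70.6 TPM in WT zygote. The 6 genes that rose were headed by LOC_Os05g30470, with 107, 116 and 104 TPM in cmt3b zygote, against 19.2, 18.0 and 19.4 TPM in WT zygote (log2 fold change 2.50, SE 0.0635, edgeR adjusted p = 9.16e-21). LOC_Os11g11680 came next, with 82.3, 70.8 and 84.2 TPM in cmt3b zygote, against 16.8, 12.6 and 16.8 TPM in WT zygote.

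LOC_Os11g24260, LOC_Os03g35640 and LOC_Os02g51620 rose by log2 fold changes of 1.98, 1.58 and 1.05. The sixth, LOC_Os03g03810, had 2733, 3046 and 3044 TPM in cmt3b zygote, against 1398, 1494 and 1380 TPM in WT zygote, which made it the most abundant of the 200 genes there. Its log2 fold change of 1.04 was close to the limit, and it was not called without cmt3b zygote replicate 3. The same held for LOC_Os02g51620, at 0.99 without that library.

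Some genes of the list were lower in both egg and zygote. Of the genes lower in cmt3b egg and in cmt3b zygote, 11 were the same, which is 26.8% of the 41 in egg and 33.3% of the 33 in zygote. Over the 20121 genes tested in both comparisons the shared falls were 27% of those in egg and 28.5% of those in zygote, so the overlap of the list was close to that of all genes. The WT egg and WT zygote libraries also chose the list together, which favours falls in both. Among them were LOC_Os08g35860 and LOC_Os02g11040. LOC_Os08g35860 (rank 10) had 37.1 and 41.8 TPM in cmt3b egg, against 201, 211 and 192 TPM in WT egg. In zygote it had 46.7, 49.7 and 56.0 TPM in cmt3b, against 105, 100.1 and 106 TPM in WT, a log2 fold change of -1.03 that became -0.96 without cmt3b zygote replicate 1. LOC_Os05g30470 and LOC_Os11g11680 were the 2 genes higher in both. LOC_Os02g51620 went opposite ways, lower in cmt3b egg (31.9 and 30.2 TPM, against 90.9, 96.8 and 90.3 TPM in WT egg) and higher in cmt3b zygote (144, 132 and 151 TPM, against 67.1, 69.4 and 69.8 TPM in WT zygote). Of the 36 genes lower in cmt3a egg, 12 were also lower in cmt3b zygote, which is 33.3% of the genes of cmt3a egg and 36.4% of the genes of cmt3b zygote, against 18.8% and 43.1% over all genes tested in both.

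**Figure D4:**
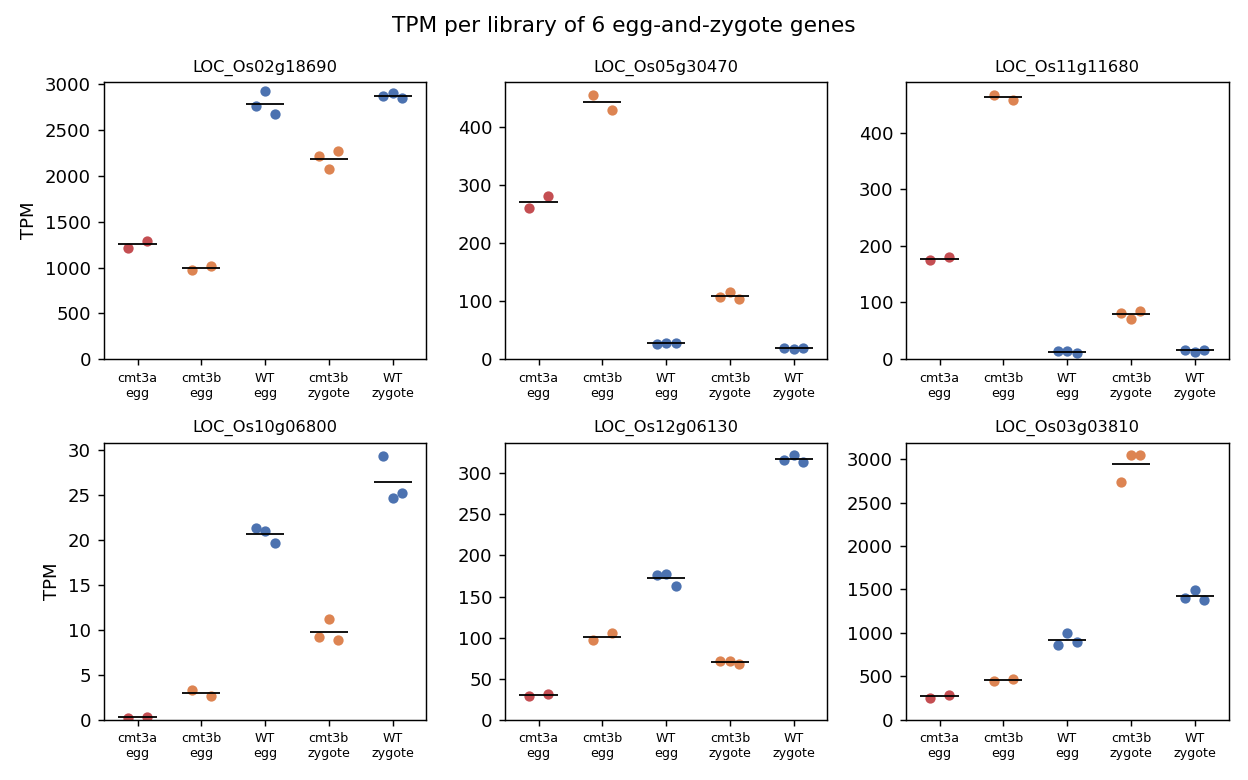
TPM (y axis) of 6 of the 200 genes in the egg and zygote groups (x axis). Points are libraries and lines are group means. LOC_Os05g30470 and LOC_Os11g11680 lie above WT in all mutant groups (271 and 178 TPM in cmt3a egg, against 27.6 and 13.0 TPM in WT egg), LOC_Os10g06800 and LOC_Os12g06130 lie below WT in all of them, and LOC_Os03g03810 lies below WT in egg and above it in zygote.

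The cmt3b libraries had no part in the choice, so egg and zygote could be compared there. Of the 200 genes, 151 kept a zygote/egg ratio between 0.5 and 2 in cmt3b, 33 were above 2 and 16 were below 0.5, with a median of 1.26. In the test, 26 genes were higher and 19 were lower in cmt3b zygote than in cmt3b egg. Over all 20727 genes tested, 9.39% were higher and 12.6% were lower, against 13% and 9.5% of the list, and in the comparison set 3.78% were higher and 5.21% were lower. The widest ratio was that of LOC_Os10g04280, with 15.7, 25.5 and 17.8 TPM in cmt3b zygote, against 1.39 and 1.11 TPM in cmt3b egg (log2 fold change 3.85, SE 0.282, edgeR adjusted p = 1.68e-10). The lowest was that of LOC_Os01g32770, with 111, 96.6 and 103 TPM in cmt3b zygote, against 608 and 626 TPM in cmt3b egg (log2 fold change -2.65, SE 0.0647, edgeR adjusted p = 2.13e-18).

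An interaction term, fitted in edgeR over the 4 groups, tested whether the cmt3b effect itself differed between zygote and egg. The effect was higher in zygote for 15 of the 200 genes and lower in zygote for 27. Over all 22303 genes tested, 8.41% were higher and 14.2% were lower, close to the 7.5% and 13.5% of the list. In the comparison set, 2.36% were higher and 11.2% were lower.

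In cmt3b meiocyte the direction was the opposite of that in egg and zygote, and the choice of the genes favours this. Of the 200 genes, 167 passed the filter on low counts in this comparison; 39 of them rose and 4 fell. Over all 23192 genes tested, 10.7% were higher and 7.9% were lower, against 23.4% and 2.4% of the genes of the list that were tested. Because a gene silent in WT meiocyte can pass the filter through its mutant level, the test was also run without the filter, where 40 genes were higher and 3 were lower. With a WT replicate held out of the choice, 32 to 41 genes were higher and 3 to 7 were lower. At group means, 46 genes had 10 TPM or more in cmt3b meiocyte and 39 in WT meiocyte.

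LOC_Os12g12570 reached the highest level among the 5 genes that rose most, with 64.3, 56.9 and 59.4 TPM in cmt3b meiocyte, against 13.3, 16.7 and 13.0 TPM in WT meiocyte (log2 fold change 2.29, SE 0.0998, edgeR adjusted p = 1.65e-17). LOC_Os04g37770 had 30.1, 24.3 and 27.9 TPM in cmt3b meiocyte, against 5.77, 7.14 and 6.26 TPM in WT meiocyte (log2 fold change 2.31). LOC_Os10g30880 had 10.5, 9.31 and 12.1 TPM in cmt3b meiocyte, against 2.42, 2.30 and 2.91 TPM in WT meiocyte, and it also rose in cmt3b egg. LOC_Os03g20740 and LOC_Os10g35360 rose by log2 fold changes of 2.60 and 2.34, at levels under 5 TPM. Their libraries did not overlap between the genotypes.

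The 4 genes that fell in cmt3b meiocyte were all at low levels. LOC_Os12g10540, the rank 2 gene, had 0.193, 0.227 and 0.162 TPM in cmt3b meiocyte, against 0.813, 1.01 and 0.880 TPM in WT meiocyte. LOC_Os06g11840 had 1.18, 1.28 and 1.21 TPM in cmt3b meiocyte, against 5.28, 4.53 and 4.71 TPM in WT meiocyte (log2 fold change -1.78), and it fell in cmt3b egg too. LOC_Os01g66850 and LOC_Os01g52160 were the others, and the call of LOC_Os01g52160 was lost under DESeq2, without the filter and without any of 4 single libraries. The choice of the genes favours a rise in mutant meiocyte together with a fall in mutant egg or zygote. Such overlaps were not counted over all genes, so the counts that follow are a description only. Of the 39 genes that rose in meiocyte, 9 fell in cmt3b zygote, which is 23.1% of the 39 and 27.3% of the 33 in zygote. In cmt3b egg 6 of the 39 fell, which is 15.4% of the 39 and 14.6% of the 41 in egg. LOC_Os02g11040 was one of them. It had 24.7, 19.2 and 20.7 TPM in cmt3b meiocyte, against 7.90, 10.1 and 7.61 TPM in WT meiocyte, but 149 and 156 TPM in cmt3b egg, against 516, 565 and 497 TPM in WT egg.

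Sperm could not be tested, since only a single WT sample stands behind the files. A gene was counted where all cmt3b libraries were over 2-fold above WT, or all over 2-fold below it. Ratios were taken on the log2 CPM scale (counts scaled to the TMM-adjusted library total, prior count of 2). The ratio could be taken for 86 of the 200 genes; in cmt3b sperm 43 of them lay above WT by this count and 22 lay below. Over all 22567 genes compared, 35.2% were higher and 32.9% were lower. Of the 86 genes, 16 had no count in WT sperm and could enter only through their cmt3b level, and 2 had no count in cmt3b sperm. The low WT sperm level was also part of the choice, so the counts are a description and nothing is read from them. Another scaling (DESeq2-type size factors) gave all genes a median log2 ratio of -0.18 in place of 0.05, a shift of over 0.1, and left the counts of 43 and 22 as they were.

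Most of the 200 genes stayed at or near 0 in sperm of both genotypes. No count was found for 38 genes in the cmt3b sperm libraries, for 94 genes in the WT sperm files and for 24 genes in either. At 10 TPM or more there were 24 genes in cmt3b sperm and 3 in WT sperm, and those 3 (LOC_Os01g71599, LOC_Os09g19710 and LOC_Os07g09020) were among the 24. The comparison set moved the same way, with 60.2% of its genes at 10 TPM or more in cmt3b sperm, against 46.2% in WT sperm, and 2.7% without a count in cmt3b sperm, against 11.3% in WT sperm. LOC_Os01g66850 stood out, with 80.7, 89.1 and 92.1 TPM in cmt3b sperm, against 2.54 and 2.45 TPM in the WT sperm files. In cmt3b sperm this was more than in cmt3b egg, where it had 33.2 and 36.2 TPM.

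The 5 largest ratios were of genes with no count in WT sperm, so each is a lower bound set by 3 counts per file. LOC_Os03g04340 had 25.1, 23.1 and 22.5 TPM in cmt3b sperm, at least 168-fold higher than WT. LOC_Os01g03180, LOC_Os08g35860, LOC_Os01g41550 and LOC_Os08g09610 averaged between 10.6 and 19.7 TPM in cmt3b sperm and were at least 117.5-fold, 92.6-fold, 76-fold and 70.4-fold higher. In the other direction, LOC_Os03g05910 had no count in cmt3b sperm, against 2.24 and 2.25 TPM in WT sperm, and was at least 14.8-fold lower. LOC_Os12g13100, LOC_Os08g04190 and LOC_Os06g44180 were under 0.1 TPM in every cmt3b sperm library, against 1.30 to 2.53 TPM in the WT sperm files, and LOC_Os01g52160 had at most 0.166 TPM in cmt3b sperm, against 2.78 and 2.83 TPM in WT sperm.

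A marker of green tissue also differed between the sperm libraries. LOC_Os12g17600, which encodes the small subunit of Rubisco, the carbon-fixing enzyme of leaves, had between 13.1 and 18.3 TPM in cmt3b sperm, against 0.0736 and 0.0774 TPM in WT sperm. LOC_Os12g17600 was higher still in WT microspore, at 145 to 158 TPM. The 5 Rubisco small subunit and chlorophyll-binding genes that the study's tables annotate summed to 2888 to 3032 TPM in cmt3b sperm, against 67.2 and 78.5 TPM in WT sperm, and to 349 to 357 TPM in WT microspore. Their median was 149.5, 20.4 and 18.4 TPM in the cmt3b sperm libraries, against 1.25 and 0.329 TPM in the WT sperm files, so few of the 5 carried the sums. Some of the study's tables list genes raised in these cmt3b libraries, which favours rises among the 5. The part of the 5 genes in the sperm ratios was not tested. In egg the same 5 genes summed to 158 and 169 TPM in cmt3a and 85.8 and 93.0 TPM in cmt3b, against 36.6 to 41.8 TPM in WT. These sums do not stand for every gene of the 5, whose median in egg was 3.04 and 3.12 TPM in cmt3a and 7.30 and 8.86 TPM in cmt3b, against 3.18 to 4.88 TPM in WT. In zygote they summed to 33.8 to 153 TPM in cmt3b, against 22.1 to 28.6 TPM in WT, and in meiocyte to 55.5 to 69.3 TPM in cmt3b, against 22.5 to 27.5 TPM in WT. The median of the 5 in meiocyte did not follow the sum, at 2.53 to 6.19 TPM in cmt3b, against 6.02 to 6.54 TPM in WT. In meiocyte LOC_Os12g17600 went the other way from the sum, at 1.66 to 1.86 TPM in cmt3b, against 6.02 to 7.08 TPM in WT. Its zygote levels spread from 0.36 to 66.0 TPM in cmt3b, against 4.66 to 6.81 TPM in WT.

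Within the cmt3b libraries, which did not enter the choice, most of the 200 genes were still higher in egg and zygote than in male cells. Against cmt3b meiocyte, 164 genes were higher in cmt3b egg and 175 in cmt3b zygote, where 16.5% and 16.7% of all genes tested were higher. No gene of the list was called lower by edgeR or by DESeq2 in either, where 27% of all genes were lower in egg and 27.5% in zygote, and at an unadjusted p under 0.05 in edgeR 4 genes were lower in cmt3b egg and 3 in cmt3b zygote. Against cmt3b sperm, 187 genes were higher in cmt3b egg and 187 in cmt3b zygote, where 42.7% and 43.3% of all genes were higher. In these, 3 and 2 genes of the list were lower, where 35.8% and 35.2% of all genes were lower. LOC_Os01g66850 and LOC_Os10g12450 were lower in both, and LOC_Os10g38080 was lower in cmt3b egg. A gene with few or no counts in the male libraries passed the filter on low counts only through egg or zygote. For such a gene a higher call was all but fixed in advance. No count was found for 38 genes in cmt3b sperm and for 6 in cmt3b meiocyte. The counts of these comparisons are therefore a description.

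The differences were large. For the list, the median log2 fold change was 2.37 for cmt3b egg against cmt3b meiocyte and 2.41 for cmt3b zygote against cmt3b meiocyte. For sperm the medians were 8.00 and 8.52, or 6.68 and 7.04 with the 38 genes that had no count in cmt3b sperm placed at their bound. The comparison set had medians of 0.09 and 0.16 against meiocyte and of 0.94 and 1.10 against sperm, where the medians of all genes were 0.30 and 0.36. With DESeq2-type size factors the median of all genes for cmt3b egg against cmt3b sperm became 0.49, and that of the list 8.19. In all, 148 of the 200 genes were higher in all 4 comparisons, 22 in 3, 27 in 2, 1 in 1 and 2 in none. The 4 comparisons share libraries, and this joint count was not made over all genes or the comparison set, so it is a description. The 3 genes of the list that were higher in fewer than 2 were LOC_Os01g36090, LOC_Os10g12450 and LOC_Os11g03780, chosen for naming after their values were seen. LOC_Os10g12450 had 4.59 and 2.04 TPM in cmt3b egg and 2.61, 5.70 and 2.64 TPM in cmt3b zygote, but 19.6, 18.1 and 15.3 TPM in cmt3b sperm.

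With meiocyte and sperm as the male cells in both genotypes, the median score was 4.02 in cmt3b and 7.56 in WT. The genes were ranked by their WT score, so a lower score in any other libraries follows in part from the choice, and the pair is given as a description. In cmt3b, 37 genes had a score below 2 and 7 below 1, and 61 genes had over 10 TPM in meiocyte or sperm, against 41 in WT. Microspore was measured in WT alone and has no part in these scores.

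**Figure D5:**
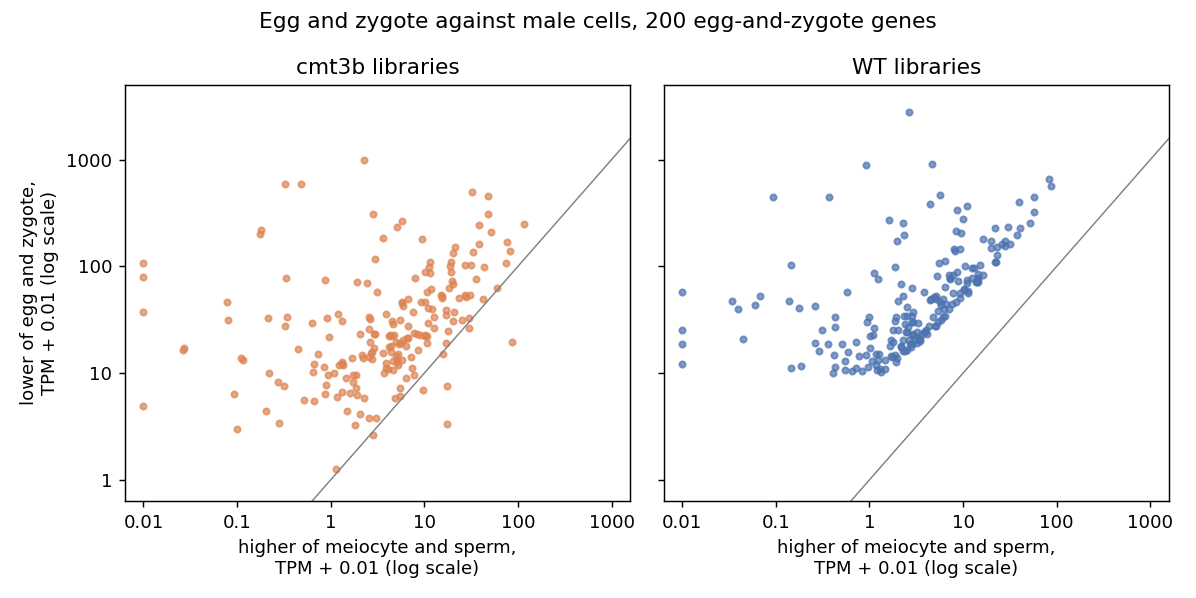
Lower of the egg and zygote group means (y axis) against the higher of the meiocyte and sperm group means (x axis), in TPM plus 0.01 on log scales, for the 200 genes in cmt3b (left) and WT (right). Points are genes and the line marks equal levels. In WT, which chose the genes, all lie above the line, and in cmt3b 7 have a score below 1.

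Median fold changes in egg and zygote were negative along the whole ranking, whereas the counts of genes that fell were less even. From the first to the last 50 ranks, the cmt3a egg counts were 10, 11, 8 and 7. Those of cmt3b egg were 14, 10, 7 and 10, and those of cmt3b zygote were 12, 6, 10 and 5. Of all genes tested, 18.5%, 8.43% and 8.08% fell in these comparisons, in the same order. Differences between the blocks were not tested. The median log2 fold changes of the 4 blocks of 50 ranks were between -0.47 and -0.33 in cmt3a egg, between -0.48 and -0.29 in cmt3b egg and between -0.52 and -0.45 in cmt3b zygote. In cmt3b meiocyte they were between 0.39 and 0.52.

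Other members of the top ranks had smaller or mixed differences. LOC_Os02g07430 (rank 3) had 134 and 157 TPM in cmt3a egg and 209 and 229.5 TPM in cmt3b egg, against 449, 450.1 and 429 TPM in WT egg, and only cmt3a egg passed the limit (log2 fold change -1.26, edgeR adjusted p = 3.73e-12). LOC_Os02g04190 (rank 4) had 182 and 213 TPM in cmt3a egg and 592 and 587 TPM in cmt3b egg, against 434, 471 and 436 TPM in WT egg, and was not called in either (log2 fold changes of -0.83 and 0.85). LOC_Os01g66290 (rank 5) was among the steadier genes, at 186 to 203 TPM in the mutant eggs, against 263 to 275 TPM in WT egg. LOC_Os03g11370 (rank 6) and LOC_Os03g52320 (rank 7) were about as high in WT zygote as in WT egg and lower in cmt3b zygote, at 183 ± 13.8 and 236 ± 4.54 TPM, against 382 ± 4.09 and 463 ± 5.25 TPM in WT zygote (SD, n = 3 each). LOC_Os03g11370 was called at a log2 fold change of -1.06, though not without cmt3b zygote replicate 2, and LOC_Os03g52320 was not called (-0.98). LOC_Os06g41030 (rank 8) had 70.3 and 73.0 TPM in cmt3b egg, against 199, 209 and 187 TPM in WT egg, and was called with a log2 fold change of -1.02, but not without cmt3b egg replicate 1 (-0.99) or WT egg replicate 2 (-0.98).

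The genes with the steadiest levels over the 5 egg and zygote groups were LOC_Os08g32680, LOC_Os12g41940, LOC_Os01g60760, LOC_Os03g52300 and LOC_Os07g09020, whose group means differed by at most 0.42 to 0.54 on the log2 scale. LOC_Os08g32680 had group means of 17.6 TPM in cmt3a egg, 23.3 TPM in cmt3b egg, 21.1 TPM in WT egg, 23.6 TPM in cmt3b zygote and 20.6 TPM in WT zygote. The most abundant of the 5, LOC_Os07g09020, had 91.4 and 93.0 TPM in cmt3a egg and 99.9 and 104 TPM in cmt3b egg, against 111, 110 and 114 TPM in WT egg.

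Only 6 of the 200 genes carry an annotation in the study's supplementary tables. LOC_Os01g53750, annotated as a glucan endo-1,3-beta-glucosidase precursor (enzymes of this kind cut the cell wall polymer callose), had 85.5 and 89.9 TPM in cmt3b egg, against 184, 172 and 181 TPM in WT egg, and was not called there (log2 fold change -0.59). In cmt3b zygote it had 118, 94.7 and 105 TPM, against 204, 199 and 207 TPM in WT zygote, and was not called either (-0.94). LOC_Os09g33460, DRB3, a protein with a double-stranded RNA binding motif, had 33.5 and 33.2 TPM in cmt3b egg, against 103, 111 and 95.1 TPM in WT egg (log2 fold change -1.18, SE 0.0609, edgeR adjusted p = 1.68e-17). Both are on the study's list of genes with methylation specific to the sexual lineage. LOC_Os08g21330, BIP126, annotated as a formamidopyrimidine-DNA glycosylase (a DNA repair enzyme), was not called in any comparison of a mutant with WT. It had 57.5 and 59.6 TPM in cmt3b egg, against 63.0, 55.6 and 57.3 TPM in WT egg.

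The other 3 stand on lists that the study drew from its male cmt3b libraries, which are the libraries used here, so their direction there is not independent. LOC_Os04g38570, ABCB14, annotated as a multidrug resistance transporter, had 5.39, 4.30 and 4.26 TPM in cmt3b meiocyte, against 2.23, 2.82 and 2.30 TPM in WT meiocyte (log2 fold change 1.13, SE 0.114, edgeR adjusted p = 1.08e-09). LOC_Os05g42340, annotated as a ubiquitin E3 ligase, had 6.60, 5.47 and 5.19 TPM in cmt3b meiocyte, against 2.08, 1.97 and 1.67 TPM in WT meiocyte (log2 fold change 1.79). LOC_Os03g01530, TUB2, a beta-tubulin and so a subunit of microtubules, had 12.8, 14.3 and 12.3 TPM in cmt3b sperm, against 0.591 and 0.518 TPM in WT sperm. In egg, TUB2 had 176 and 173 TPM in cmt3a and 137 and 139 TPM in cmt3b, against 253, 253 and 252 TPM in WT, and was not called (log2 fold changes of -0.19 and -0.43).

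What the genes share beyond expression could be read only from their identifiers and lengths. Their median length was 1509 bases, with the middle of the distribution between 1110 and 1959 bases, against a median of 1667 bases in the comparison set. They lay on all 12 chromosomes, as the identifiers give them, with 29 genes on chromosome 3, 28 on chromosome 1 and 26 on chromosome 2. These are 14.5%, 14% and 13% of the list, close to the 14.86%, 13.54% and 12.39% of all genes that met the minimum and the ratio. With identifiers at most 50 apart taken as neighbours, 13 of the 200 genes fell into 6 runs, of which the longest held LOC_Os08g32680, LOC_Os08g32690 and LOC_Os08g32720. One run joined LOC_Os05g42340 and LOC_Os05g42350, and another joined LOC_Os03g52300 and LOC_Os03g52320. The share of the comparison set in such runs is not given here, so nothing is read from their number. The counting may divide reads between near-identical copies, and such copies were not looked for.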

How the data were processed

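RNA-seq was analysed in 27 of the 59 samples; the 32 bisulfite libraries were not used here. According to the study's methods, the authors trimmed reads with fastp (version 0.20.1), used HISAT2 with the rice genome release MSU7.0 for alignment, and obtained gene counts from featureCounts; the HISAT2 and featureCounts versions are not given in the sources used here. The deposited counts are whole reads per gene. The deposited TPM and FPKM values were made by the authors from those counts; FPKM served here only to recover gene lengths. The paper and the labels name different cDNA kits. The 200 genes and the lists were chosen with earlier results of these data known. Gene symbols come from the study's tables, since 0 of the 200 identifiers matched the RefSeq table at hand.

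Counts were tested with edgeR 4.0.16 (R 4.3.3; glmQLFit and glmQLFTest, TMM scaling, filterByExpr with a minimum count of 10), with Benjamini-Hochberg adjustment over all genes tested; SE is the log2 fold change divided by the square root of its F statistic. A call needed over 2-fold change and an adjusted p below 0.01. No source says that replicates came from separate plants, so p-values measure only the spread between these libraries. Totals of 9240046 to 25610860 counts limit the precision of genes with few counts, and bounds use a floor of 3 counts per library and cover counting error only. Named genes were the 10 of highest rank, the 10 of highest WT egg TPM, 2 on each side of the rank limit, the 5 largest rises and falls in each mutant comparison without overlap between libraries, the 5 steadiest, all annotated ones, and CMT3a and CMT3b. Alternatives were DESeq2 1.42.0, DESeq2-type size factors, no filter, a replicate block, 1 fit of all groups, other settings of the rule and leaving out each library. The edgeR scripts were tested on simulated data. Tables and plots were made with Python 3.11.15, pandas 2.3.3, numpy 2.4.6 and matplotlib 3.10.9.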

Additional observations from a re-analysis of the deposited data

Results flagged for a closer look

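For some of the 200 genes the effect of cmt3b (against WT of the same cell) differed between zygote and egg by edgeR's interaction term; it was higher in zygote for 15 and lower in zygote for 27. These are 7.5% and 13.5% of the list, close to the 8.41% and 14.2% of all genes tested and above the 2.36% and 11.2% of the comparison set. The WT libraries of this test also chose the list, so nothing about the list is read from the counts. The difference of log2 fold changes, zygote minus egg, was 3.73 for LOC_Os10g04280 (SE 0.321, edgeR adjusted p = 1.43e-11), which fell in cmt3b egg. It was 2.18 for LOC_Os02g51620, the gene called in opposite directions, 2.15 for LOC_Os11g24260, 2.10 for LOC_Os03g35640 and 1.97 for LOC_Os06g11840. In the other direction it was -3.26 for LOC_Os11g11680 (SE 0.16, edgeR adjusted p = 1.59e-17), which rose in both cells and more in egg. It was -2.76 for LOC_Os05g19670, -2.50 for LOC_Os10g30880, -2.47 for LOC_Os01g32770 and -2.02 for LOC_Os03g53100. LOC_Os05g19670 had 21.0, 12.5 and 16.1 TPM in cmt3b zygote, against 67.6, 65.7 and 70.6 TPM in WT zygote, whereas in egg it had 49.5 and 48.9 TPM in cmt3b, against 37.9, 41.0 and 40.5 TPM in WT.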

How the results depend on the processing

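Other settings of the rule kept 151 to 200 of the 200 genes. Of the counts of genes called under the alternatives, 291 were within 1.5 times the reported count and 2 were not, both from choosing the genes without a WT replicate and comparing with it alone (added after seeing the data): with WT replicate 1, 8 genes were higher in cmt3a egg, and with WT replicate 2, 7 were lower in cmt3b meiocyte; the cause was not tested. No named gene reversed; of their values under the alternatives, 2791 kept their side of the threshold, 16 lost the call and 19 gained it.

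Leaving out 1 library at a time gave 5 to 6 genes higher and 36 to 38 lower in cmt3a egg, 7 to 9 and 39 to 43 in cmt3b egg, 4 to 6 and 32 to 38 in cmt3b zygote, 37 to 41 and 3 to 5 in cmt3b meiocyte, and 43 to 44 and 19 to 21 in cmt3b sperm. Where this left 1 library in a group, it was assumed to vary like the other group.

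Replicate numbers did not pair the samples (24 correlations of deviations between -0.0714 and 0.0467). With the replicate number as a block, 5 genes were higher and 37 lower in cmt3a egg, 6 and 41 in cmt3b egg, 6 and 34 in cmt3b zygote, and 39 and 4 in cmt3b meiocyte. Levels under 1 TPM in male cells rest on few counts and set the precision of ratios there.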
